A study of Mus musculus with 6 samples.

Results

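Iron handling in the hepatocyte was followed through 10 genes, taken from the raw count table by their symbols: Hamp, Hfe2, Hfe, Tfr2, Tfrc, Trf, Ftl1, Fth1, Cp and Ireb2. All 10 were found among the 15565 genes of the table, and all 10 passed the filter on low counts that left 13288 genes to test. The cells were hepatocytes, freed from the liver by collagenase perfusion. By sorting, each of 3 mice gave 1 library of TERT(High) and 1 of TERT(Low) cells, 6 libraries in all. Both groups came from C57BL/6 mice aged 2 months with the genotype Tert(CreERT2/+); R26(LSL-Tomato/+), in which 1 Tert allele carries the tamoxifen-inducible recombinase CreERT2 and 1 R26 locus carries a Tomato reporter that Cre switches on. The labels record no tamoxifen or other treatment and do not say by which signal the cells were sorted. The design asks how mRNA levels differ between hepatocytes with high and with low telomerase reverse transcriptase (TERT).

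The liver sets the iron supply of the body. Hepatocytes secrete hepcidin, a peptide hormone that makes cells internalise and degrade the iron exporter ferroportin, and they tune hepcidin to the iron load through bone morphogenetic protein (BMP) receptors, the co-receptor hemojuvelin, and a sensor of transferrin-bound iron built from HFE and transferrin receptor 2. The same cells make transferrin, which carries iron in plasma, take it up again through transferrin receptors, store the metal in ferritin shells of light and heavy chains, and release ceruloplasmin, a copper ferroxidase that oxidises iron for loading onto transferrin. Inside cells the iron regulatory proteins bind a hairpin, the iron-responsive element, when iron is scarce: in the 5′ UTR of the ferritin mRNAs it blocks translation, and in the 3′ UTR of the transferrin receptor 1 mRNA it protects the RNA from decay.

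The hairpins are shown because they tie Ftl1, Fth1 and Tfrc to Ireb2, the gene of iron regulatory protein 2. Transcripts of GENCODE M21 were searched for a C, 5 stem bases, the loop CAGTGN and 5 further bases that all pair with the first 5 (A with T, G with C, or G with T), on the transcript strand. The bulged C and the loop are in capitals, and each run has 29 bases. Fth1 (chr19:9982732-9982760, plus strand) and Ftl1 (chr7:45459779-45459807, minus strand) hold 1 such hairpin each in the 5′ UTR. Tfrc holds 4 in the 3′ UTR (plus strand; chr16:32631219-32631247, chr16:32631598-32631626, chr16:32631663-32631691 and chr16:32631710-32631738).
Fth1: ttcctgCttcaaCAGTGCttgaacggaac
Ftl1: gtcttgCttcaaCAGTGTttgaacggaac
Tfrc 1: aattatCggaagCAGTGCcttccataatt
Tfrc 2: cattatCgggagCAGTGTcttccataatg
Tfrc 3: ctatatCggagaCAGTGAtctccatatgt
Tfrc 4: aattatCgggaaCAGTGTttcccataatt
Among the 14484 genes with an annotated coding transcript the same letters stood in the 5′ UTR of 15 (0.104%) and in the 3′ UTR of 87 (0.601%). The ferroportin gene Slc40a1, which is not among the 10, was another of those with the letters in the 5′ UTR. A match of letters is a description and not a binding site. Hairpins that depart from this pattern were not sought, so the numbers per gene count matches and not all elements.

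The libraries held 53585174 to 64065266 counts in TERT(High) cells and 55355819 to 76164917 counts in TERT(Low) cells. Levels are given as CPM, counts scaled to a common library size with TMM factors, which compare libraries by a trimmed mean over their genes. Tert had 30 to 38 counts in TERT(High) and 12 to 21 counts in TERT(Low) libraries, with a log2 fold change of 0.87 (edgeR adjusted p = 0.249). The 8 hepatocyte markers, led by Alb, summed to 117100 to 130200 CPM in TERT(High) libraries, against 108000 to 129800 CPM in TERT(Low) ones. Most of this sum was Alb, at 83330 ± 6153 against 62650 ± 12100 CPM, with TERT(High) wholly above, whereas Ttr, Apoa1 and Apoh stood at 0.62-, 0.69- and 0.68-fold, with TERT(High) wholly below. Of the 8, edgeR called 0. Before adjustment its p was under 0.05 for 3, all lower, beside 12.4% of all tested genes. DESeq2 and limma-voom also had 3 lower each, beside 11.6% and 8.31% of all genes. Of other cell types, the 11 Kupffer cell markers (led by Cd5l) summed to 17.9 to 99.7 against 14.9 to 46.5 CPM, the 8 endothelial markers (led by Clec4g) to 34.5 to 63.6 against 24.1 to 28.1 CPM, and the 8 neutrophil markers (led by S100a9) to 2.68 to 10.5 against 0.327 to 1.97 CPM. The 7 erythroid markers found (led by Alas2) reached 207 CPM in TERT(High) cells of mouse 1 and lay between 17.5 and 61.0 CPM elsewhere. Of the 207 CPM, Hba-a1 and Hba-a2 gave 64.6 CPM each from equal counts, so the sum may hold the same reads more than once. The 7 stellate cell markers reached 138 CPM in the same library, 127 CPM of it Col1a1, and at most 9.73 CPM elsewhere. The 4 lymphocyte markers found (led by Nkg7) stayed at or under 0.601 CPM, and the 3 cholangiocyte markers found, led by Spp1, spanned 2.05 to 11.7 CPM over both groups. No marker found was at 0 in all libraries. In bulk RNA, fewer cells of a type and less RNA per cell cannot be told apart.

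In TERT(High) cells the RNA of Ireb2 rose, a call that offsets for transcript length and GC content ended. No other of the 10 genes passed the main test in either direction, a test that left out the pairing of libraries by mouse. Ceruloplasmin RNA (Cp) was 1.75-fold higher on average and Hfe RNA stood at 0.71-fold, each without overlap of the groups. Both fell short of the threshold in the main test, and Cp passed with the mouse as a block. The ferritin genes were lower in TERT(High) cells of all 3 mice and did not pass. Hamp differed between mice much more than between the sorted populations. The main test was the quasi-likelihood test of edgeR, with p adjusted by Benjamini-Hochberg over all 13288 genes. At an adjusted p under 0.05 it called 1 of 10 higher, where 4.43% of all tested genes were higher, and 0 of 10 lower, where 3.71% were lower (8.14% in either direction). With the mouse as a block 2 of 10 were higher (Ireb2 and Cp), beside 5.43% of all tested genes, and 0 lower, beside 4.3% (9.72% in either direction). Without adjustment, p was under 0.05 for Ireb2 and Cp on the higher side, beside 16.3% of all tested genes, and for Hfe on the lower side, beside 12.4%. DESeq2 and limma-voom, both also fitted without a mouse block, each called these 3 genes, 2 higher and 1 lower, at an adjusted p under 0.05. Over all genes DESeq2 called 13.6% higher and 11.6% lower, of 11210 with an adjusted p, and limma-voom called 10.3% higher and 8.31% lower. The values of TERT(High) cells lay wholly above those of TERT(Low) cells for 2 of the 10 (17.5% of all tested genes) and wholly below for 1 (15.9% of all tested genes, 33.4% in either direction). With 10 genes these counts lie near the background and are not read as a property of the 10 genes. The median log2 fold change of the 10 genes was -0.12, beside -0.01 for all tested genes.

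**Figure D1:**
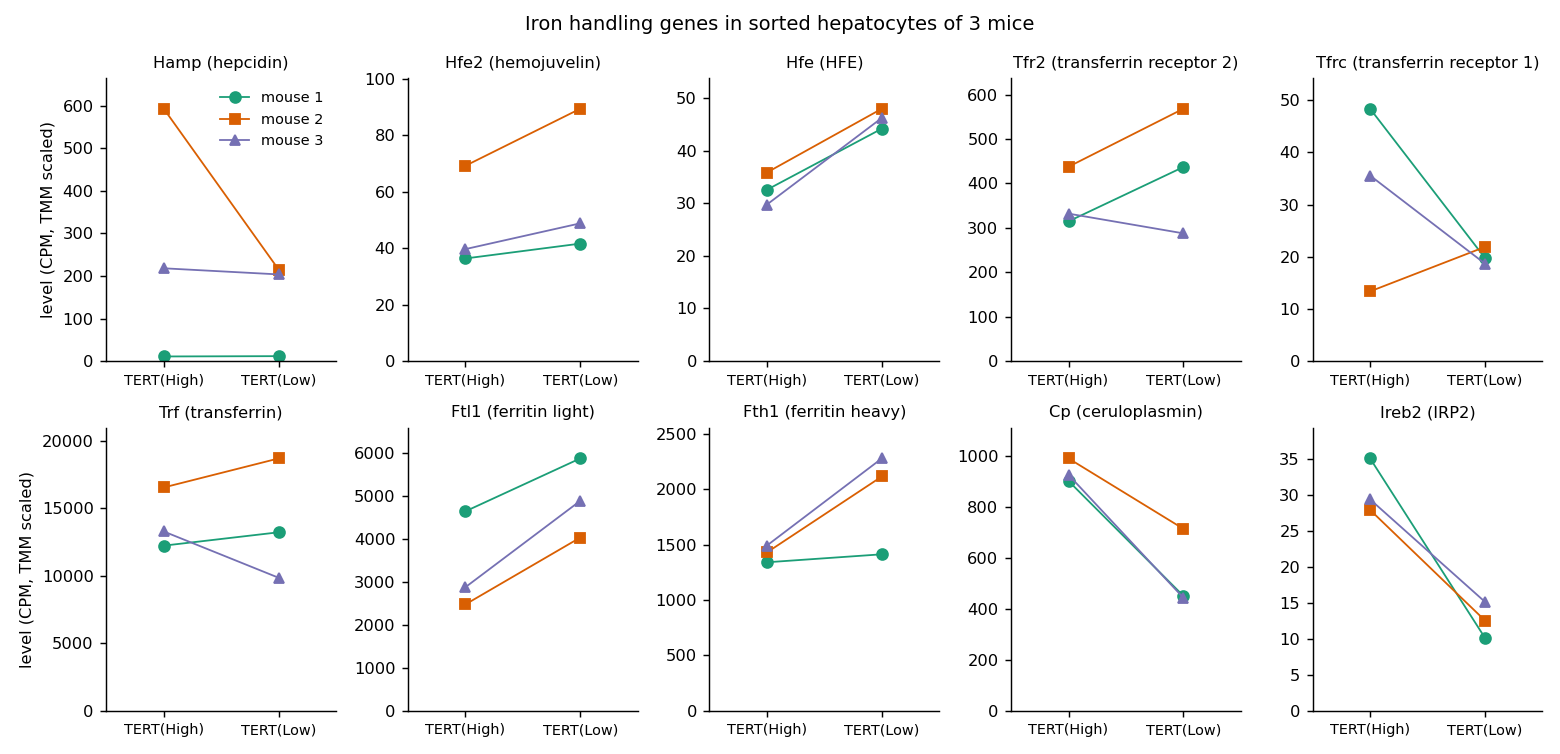
Level of each of the 10 iron handling genes (y axis, CPM scaled by TMM, starting at 0) in TERT(High) and TERT(Low) cells, with a line joining the 2 libraries of each of 3 mice. Ireb2 and Cp lie higher in TERT(High) cells of every mouse, Hfe lies lower in every mouse, and Hamp in mouse 1 is near 11 CPM in both populations.

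Hamp, the gene of hepcidin (Entrez gene 84506, chromosome 7, 30942368 to 30944029, minus strand; gene positions here and below are those of RefSeq on GRCm38.p6), had 10.9, 593 and 218 CPM in mice 1, 2 and 3 in TERT(High) cells, against 11.7, 215 and 204 CPM in TERT(Low) cells of the same mice. Both libraries of mouse 1 were low, TERT(High) cells of mouse 2 were the highest, and the groups overlapped. The means were 274 ± 295 CPM in TERT(High) cells, against 144 ± 114 CPM in TERT(Low) cells (SD, n = 3 each), with a log2 fold change of 0.93 (SE 1.38, edgeR adjusted p = 0.692). That difference rested on 1 library: within mice the log2 difference was -0.09, 1.46 and 0.10 for mice 1, 2 and 3, and without TERT(High) cells of mouse 2 the log2 fold change was -0.38 (edgeR adjusted p = 0.909). Between mice, by contrast, the mean of the 2 libraries ranged 35.8-fold, while the other 9 genes ranged between 1.10-fold (Hfe) and 2.03-fold (Hfe2). Among all 13288 tested genes Hamp ranked 461 by this spread, so many other genes ranged more widely. A test of the mouse term in edgeR, added after these values were seen, gave Hamp an adjusted p of 0.127. Across all tested genes 0 (0%) passed that test after adjustment, with a smallest edgeR adjusted p of 0.114. Without adjustment, p in that test was under 0.05 for 1761 of the 13288 tested genes. Of the 10 iron handling genes it was under 0.05 for 3, Hamp, Hfe2 and Ftl1. With so few genes this count is not read as a property of the iron handling genes.

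The genes whose level followed Hamp most closely over the 6 libraries were Hamp2 (Pearson r = 0.999 on log2 CPM), Adh6-ps1 (0.988), Rbmx (0.987), Bmper (0.986) and Dqx1 (0.985). These correlations describe 6 libraries in which mouse 1 stands apart, and both libraries of a mouse share its liver. Hamp2, the mouse paralog of Hamp, had 3.57, 273 and 102 CPM in mice 1, 2 and 3 in TERT(High) cells, against 4.39, 82.5 and 92.1 CPM in TERT(Low) cells. Its count was 32.7% to 46.9% of the Hamp count. The transcripts of Hamp and Hamp2 are 80.1% identical over 396 aligned bases, and reads of near-identical genes were not always kept apart in the count table, since the alpha globin genes Hba-a1 and Hba-a2 have equal counts in all 6 libraries. Whether reads of Hamp and Hamp2, at 80.1% identity, were also shared was not tested, so the Hamp2 value is uncertain. Bmper, which encodes a secreted BMP-binding protein, was low at 0.294, 3.22 and 1.41 CPM in TERT(High) cells against 0.191, 1.91 and 1.39 CPM in TERT(Low) cells.

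Mouse 1 was also low in Id1, a transcriptional target of BMP signalling, which had 1.52, 9.58 and 7.17 CPM in mice 1, 2 and 3 in TERT(High) cells, against 1.43, 9.97 and 13.3 CPM in TERT(Low) cells. Saa1, an acute phase gene that was singled out after its values were seen, had 56.0, 1547 and 499 CPM in TERT(High) cells, against 66.8, 1042 and 1139 CPM in TERT(Low) cells. In both genes the libraries of mouse 1 lay below the other 4. Neither gene passed the test between the populations (edgeR adjusted p = 0.778 for Id1 and 0.970 for Saa1). Id1, Atoh8, Smad7 and Smad6, genes of signalling to hepcidin, are named outside the rule for named genes. Atoh8 was also lowest in mouse 1, at 3.525 and 3.569 CPM in TERT(High) and TERT(Low) cells, against at least 5.35 CPM elsewhere. Smad7 was not: TERT(High) cells of mice 1, 2 and 3 had 2.45, 3.25 and 2.71 CPM. TERT(Low) cells had 1.96, 2.41 and 1.59 CPM. Smad6 was not either, with 1.88, 1.93 and 1.78 CPM against 1.72, 2.37 and 1.44 CPM.

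**Figure D2:**
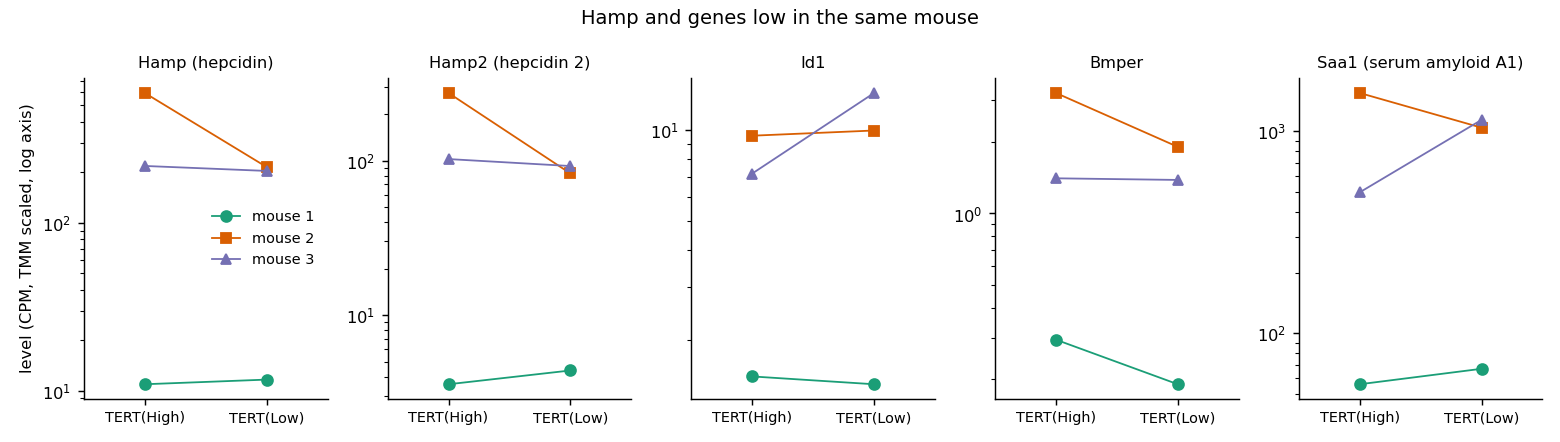
Levels of Hamp, Hamp2, Id1, Bmper and Saa1 (y axes, CPM scaled by TMM, log axes) in TERT(High) and TERT(Low) cells, with a line per mouse. In all 5 panels both libraries of mouse 1 lie below the 4 libraries of mice 2 and 3, and for Hamp they stand at 10.9 and 11.7 CPM.

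Upstream of hepcidin, Hfe2 encodes hemojuvelin, the BMP co-receptor (Entrez gene 69585, chromosome 3, 96525163 to 96529216). It had 36.3, 69.1 and 39.6 CPM in mice 1, 2 and 3 in TERT(High) cells, against 41.6, 89.3 and 48.8 CPM in TERT(Low) cells. TERT(High) cells were lower in each mouse, yet mouse 2 was highest in both populations, so that the groups overlapped (log2 fold change -0.31, SE 0.37, edgeR adjusted p = 0.633). With the mouse as a block the SE was 0.12 and the adjusted p 0.169. Without TERT(Low) cells of mouse 2 the log2 fold change was 0.11.

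Hfe, a class I-like membrane protein that binds transferrin receptors (Entrez gene 15216, chromosome 13, 23702034 to 23710854), had 32.6, 35.8 and 29.8 CPM in TERT(High) cells and 44.2, 48.0 and 46.2 CPM in TERT(Low) cells. All TERT(High) values lay below all TERT(Low) values, and replicates were tight. The means were 32.7 ± 3.05 against 46.1 ± 1.90 CPM, with a log2 fold change of -0.50 (SE 0.14, edgeR adjusted p = 0.0686). The adjusted p was 0.0068 with DESeq2, 0.0358 with limma-voom and 0.0458 with upper-quartile scaling, so the call for Hfe rests on the tool and scaling. The authors' deposited table gave a log2 fold change of -0.48 with an adjusted p of 0.0243.

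Tfr2, the transferrin receptor 2 of the hepatocyte iron sensor (Entrez gene 50765, chromosome 5, 137569822 to 137588081), had 315, 437 and 332 CPM in TERT(High) cells, against 437, 568 and 288 CPM in TERT(Low) cells. In mice 1 and 2 it was lower in TERT(High) cells, and in mouse 3 it was higher, and the groups overlapped (log2 fold change -0.25, SE 0.28, edgeR adjusted p = 0.594). Without TERT(Low) cells of mouse 2 the log2 fold change was 0.01.

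On the uptake side, Tfrc encodes transferrin receptor 1, the general entry route of transferrin iron (Entrez gene 22042, chromosome 16, 32608896 to 32632794). It had 48.4, 13.4 and 35.6 CPM in mice 1, 2 and 3 in TERT(High) cells, against 19.8, 21.9 and 18.7 CPM in TERT(Low) cells. The TERT(Low) values were close together, whereas TERT(High) cells held both the highest and the lowest value. Within mice the log2 difference was 1.29, -0.71 and 0.93. Pooled, this came to a log2 fold change of 0.69 (SE 0.43, edgeR adjusted p = 0.349). The library with most Tfrc, TERT(High) of mouse 1, was also the one with 207 CPM of erythroid markers, and the next, TERT(High) of mouse 3, the one with 99.7 CPM of Kupffer cell markers. Immature red cells and macrophages are known to carry much transferrin receptor 1, and their part in these values was not tested.

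Trf, the gene of transferrin (Entrez gene 22041, chromosome 9, 103208876 to 103230286), was the most abundant of the 10. It had 12230, 16540 and 13280 CPM in TERT(High) cells, against 13220, 18690 and 9852 CPM in TERT(Low) cells. The groups overlapped fully, and the log2 fold change of 0.01 (SE 0.27, edgeR adjusted p = 0.986) had no settled sign across settings.

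For storage, Ftl1 encodes the ferritin light chain, which helps iron to mineralise in the shell (Entrez gene 14325, chromosome 7, 45457944 to 45459886). It had 4635, 2472 and 2871 CPM in mice 1, 2 and 3 in TERT(High) cells, against 5865, 4026 and 4879 CPM in TERT(Low) cells. TERT(High) cells were lower in each mouse, while mouse 1 was highest in both populations and made the groups overlap. For Ftl1 the log2 fold change came to -0.57 (SE 0.28, edgeR adjusted p = 0.244), and -0.60 (SE 0.15, adjusted p = 0.0613) with the mouse as a block. Without TERT(High) cells of mouse 1 it was -0.93 (edgeR adjusted p = 0.0595). The authors' deposited table gave -0.60 (SE 0.18) with an adjusted p of 0.00495. DESeq2 without a mouse block gave -0.58 here (SE 0.30, adjusted p = 0.152). Whether the authors' fit held a mouse term was not tested.

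Fth1 encodes the heavy chain, which carries the ferroxidase activity of ferritin (Entrez gene 14319, chromosome 19, 9980600 to 9985111). It had 1340, 1429 and 1491 CPM in TERT(High) cells, against 1412, 2114 and 2277 CPM in TERT(Low) cells. The difference was small in mouse 1 (-0.08 on the log2 scale) and larger in mice 2 and 3 (-0.57 and -0.61). Pooled, the log2 fold change of Fth1 came to -0.45 (SE 0.21, edgeR adjusted p = 0.220). Ferritin genes have many processed pseudogenes in the mouse genome, and reads from or shared with these cannot be set apart in the counts. The light chain was the more abundant in every library, and within mice Ftl1 and Fth1 were lower in TERT(High) cells in each of the 3 pairs.

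Cp encodes ceruloplasmin (Entrez gene 12870, chromosome 3, 19956933 to 20009750). It had 903, 992 and 928 CPM in TERT(High) cells, against 452, 715 and 444 CPM in TERT(Low) cells. All TERT(High) values lay above all TERT(Low) values, and the log2 difference was above 0 in each of the 3 mice, at least 0.47 and at most 1.06. The means were 941 ± 45.9 against 537 ± 154 CPM, a 1.75-fold difference with a log2 fold change of 0.81 (SE 0.22, edgeR adjusted p = 0.068). With the mouse as a block the log2 fold change was 0.85 (SE 0.16) and passed, with an edgeR adjusted p of 0.0462. The adjusted p was 0.00492 with DESeq2, 0.0246 with limma-voom and 0.0429 with the strict filter, and Cp did not pass in the other 15 of 19 alternatives. With offsets for transcript length and GC content it stood at 0.28 on the log2 scale (SE 0.35, edgeR adjusted p = 0.753). The authors' deposited table gave 0.79 with an adjusted p of 2.03e-04.

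Ireb2 encodes iron regulatory protein 2, which binds iron-responsive elements in iron-poor cells and is degraded in iron-rich cells (Entrez gene 64602, chromosome 9, 54862658 to 54912534). It had 35.0, 27.9 and 29.3 CPM in mice 1, 2 and 3 in TERT(High) cells, against 10.1, 12.5 and 15.1 CPM in TERT(Low) cells. Every TERT(High) value was higher than every TERT(Low) value. The means were 30.8 ± 3.78 against 12.6 ± 2.50 CPM, a 2.44-fold difference with a log2 fold change of 1.29 (SE 0.20, edgeR adjusted p = 0.0277). Within mice the log2 difference was 1.79, 1.15 and 0.96. The call held with the mouse as a block (log2 fold change 1.30, edgeR adjusted p = 0.0407). It was lost with offsets for transcript length and GC content, where the log2 fold change was 0.56 (edgeR adjusted p = 0.434, and 0.207 with the block added). It was lost when any single library other than TERT(High) of mouse 1 was left out, namely TERT(High) of mouse 2 or 3 or TERT(Low) of mouse 1, 2 or 3 (edgeR adjusted p from 0.0805 to 0.148), settings in which no gene of the table passed. The log2 fold change then stayed between 1.15 and 1.44. The authors' deposited table gave 1.18 with an adjusted p of 1.6e-05.

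The other iron regulatory protein is Aco1, a cytosolic aconitase that becomes an RNA-binding protein when it loses its iron-sulfur cluster. It had 175, 233 and 208 CPM in TERT(High) cells, against 210, 228 and 179 CPM in TERT(Low) cells (edgeR adjusted p = 0.992), and is named here outside the rule for named genes, as the other gene of its kind.

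Transcript length accompanied these differences. Longer transcripts tended to have higher log2 fold changes: Spearman's rho was 0.482 across 12548 tested genes whose transcript is annotated, as a description, since genes are not independent replicates. Ireb2, Tfrc and Cp, with transcripts of 5770, 4890 and 4564 nt, are the longest of the 10 and had log2 fold changes of 1.29, 0.69 and 0.81. Ftl1 and Fth1, with 968 and 1494 nt, are the shortest apart from Hamp (410 nt), and stood at -0.57 and -0.45. When the trend of each library with transcript length and GC content was removed, the log2 fold change of Ireb2 was the 0.56 given above (SE 0.27), and that of Tfrc was -0.04 (SE 0.36). The ferritins then stood at -0.02 (SE 0.32) for Ftl1 and -0.09 (SE 0.22) for Fth1. Hfe, at 3572 nt, kept a value of -0.65 (SE 0.20, unadjusted p = 0.0138, edgeR adjusted p = 0.257). Under this setting edgeR called 0 genes in the whole table, while 1105 genes were above and 537 below 0 at an unadjusted p under 0.05. How much of each difference belongs to transcript length and how much to the sorted cells cannot be told apart.

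**Figure D3:**
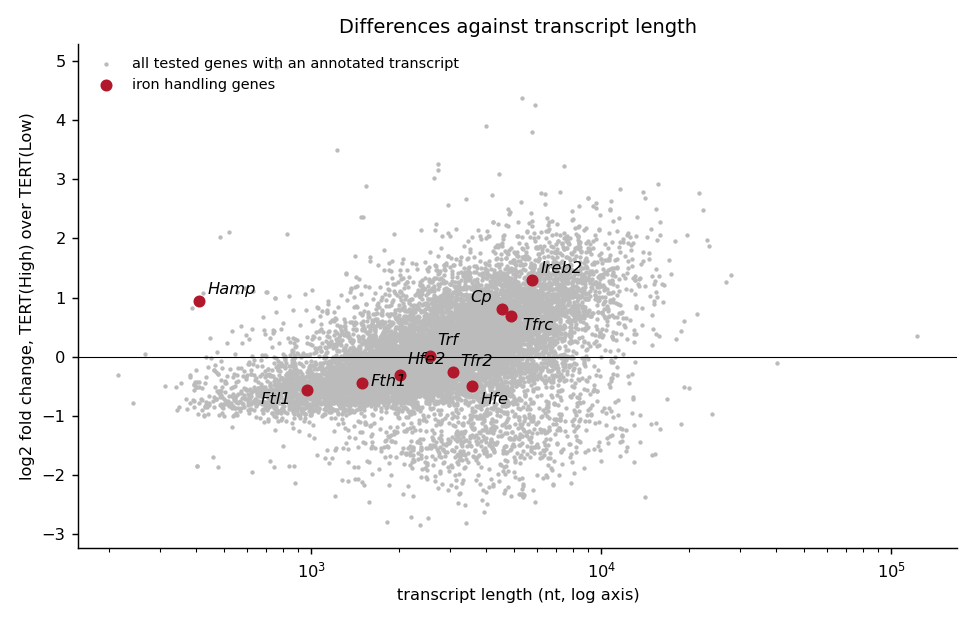
Log2 fold change of TERT(High) over TERT(Low) cells (y axis) against transcript length in nt (x axis, log axis) for 12548 tested genes of known transcript length (grey) and the 10 iron handling genes (red). Ireb2, Tfrc and Cp lie to the right and above 0, Ftl1 and Fth1 to the left and below 0, and Hamp stands apart at 410 nt and 0.93.

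**Figure D4:**
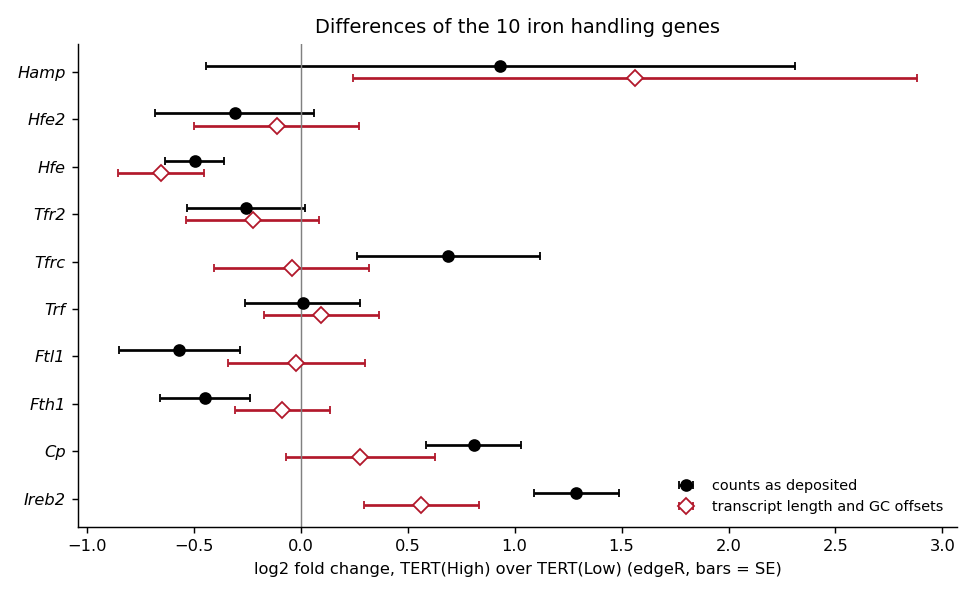
Log2 fold change of TERT(High) over TERT(Low) cells (x axis) for each of the 10 genes, with bars of 1 SE, from edgeR on the counts as deposited (filled circles) and with offsets for transcript length and GC content (open diamonds). Ireb2 moves between 1.29 and 0.56, the ferritins move close to 0, and Hfe stays below 0.

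Per kilobase of transcript, transferrin RNA led the 10 genes and Ireb2 RNA came last. Over all 6 libraries Trf was at 5433 ± 1229 and Ftl1 at 4261 ± 1321 CPM per kilobase (SD, n = 6), and their ranges overlapped. Fth1 followed at 1123 ± 273 CPM per kilobase, below every value of Ftl1. This place of Fth1 rests on the chosen transcript of 1494 nt. RefSeq gives Fth1 another start closer to the hairpin, and a shorter transcript would raise its value. Hamp, at 509 ± 519 CPM per kilobase, spread from 26.7 to 1447 and overlapped both Fth1 and Cp. Cp at 162 ± 53.4 and Tfr2 at 129 ± 34.3 CPM per kilobase overlapped each other. Hfe2 at 26.7 ± 10.3 CPM per kilobase lay apart from Tfr2 above it and Hfe below it. Hfe at 11.03 ± 2.15, Tfrc at 5.37 ± 2.68 and Ireb2 at 3.76 ± 1.79 CPM per kilobase formed the low end, where each overlapped the next. The receptor of the hepatocyte sensor, Tfr2, was thus above the general receptor Tfrc in every library.

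Beyond the 10 genes, 5 lists of 95 iron genes were read from the same test, of which 91 were tested. The lists were drawn up with earlier results of these data known, and their counts are descriptions. In TERT(High) cells 6 of them rose and 12 fell, which is 6.6% and 13.2% of those tested, beside 4.43% and 3.71% of all tested genes. With the length and GC offsets 0 passed in either direction.

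Signalling to hepcidin held 4 of the 6 calls that were higher. Of its 24 genes, which include regulators, the BMP target Id1 and the paralog Hamp2, 4 rose and 0 fell by edgeR. DESeq2 and limma-voom each gave 6 and 0, and 7 were above and 0 below at an unadjusted p under 0.05 in edgeR. Over all genes edgeR called 4.43% higher and 3.71% lower, DESeq2 13.6% and 11.6%, and limma-voom 10.3% and 8.31%. Without adjustment the shares in edgeR were 16.3% above and 12.4% below. In the list 10 of 24 had TERT(High) values wholly above TERT(Low) values, beside 17.5% of all tested genes. Jak2, a kinase of cytokine receptors, was at 3.75 ± 0.946 against 1.40 ± 0.366 CPM (log2 fold change 1.42, SE 0.31, edgeR adjusted p = 0.0417). Bmpr2, a type II BMP receptor, was at 12.6 ± 3.38 against 5.01 ± 0.615 CPM (1.32, SE 0.24). Il6st, the gp130 chain shared by receptors of the interleukin-6 family, was at 56.9 ± 9.44 against 25.6 ± 5.29 CPM (1.15, SE 0.21), and Acvr2a, an activin receptor that also serves BMPs, at 11.8 ± 3.32 against 5.55 ± 0.499 CPM (1.09, SE 0.24, edgeR adjusted p = 0.0430, and 0.0565 with the mouse as a block). The list median was 0.65, and 0.36 with the length and GC offsets. Endothelial cells also express BMP receptors. Of 8 endothelial markers 3 were called higher, beside 4.43% of all tested genes, and 6 lay wholly above, beside 17.5%. Their sum was 34.5 to 63.6 CPM in TERT(High) libraries, against 24.1 to 28.1 CPM in TERT(Low) ones. Clec4g, the most abundant, stood at 0.95-fold (edgeR adjusted p = 0.833), and Oit3 overlapped at 1.42-fold. The part of endothelial cells in these values was not tested.

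Iron transport showed no call. Of 14 tested genes 0 rose and 0 fell by edgeR, by DESeq2 or by limma-voom, and 0 had an unadjusted p under 0.05 in edgeR (list median -0.25). Over all tested genes edgeR called 4.43% higher and 3.71% lower, and had 16.3% above and 12.4% below without adjustment. Slc39a14, a zinc and iron importer of hepatocytes, was at 140 ± 36.3 CPM in TERT(High) cells, against 126 ± 35.5 CPM in TERT(Low) cells (edgeR adjusted p = 0.762). The other of the 2 most abundant transport genes was Lcn2, whose level differed mainly by mouse. Slc40a1, the ferroportin that hepcidin targets and that was named here after its values were seen, was at 84.5 ± 14.1 against 86.4 ± 32.1 CPM (log2 fold change -0.03, SE 0.29, edgeR adjusted p = 0.955).

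Of 8 tested genes of iron storage and sensing 1 rose and 1 fell, beside 4.43% and 3.71% of all tested genes. Herc2, a ubiquitin ligase, was at 16.2 ± 5.04 against 6.69 ± 0.792 CPM (log2 fold change 1.28, SE 0.27, edgeR adjusted p = 0.0395, and 0.0531 with the mouse as a block). Bola2, which works with glutaredoxin 3 in cytosolic iron delivery, was at 9.57 ± 0.189 against 17.5 ± 3.19 CPM (-0.88, SE 0.17, edgeR adjusted p = 0.0362). The list median was -0.08.

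Heme metabolism held calls that were lower. Of 19 tested genes 4 fell and 0 rose by edgeR (5 and 2 by DESeq2, 6 and 1 by limma-voom, and 7 and 2 at an unadjusted p under 0.05 in edgeR). Over all genes edgeR called 3.71% lower and 4.43% higher, DESeq2 11.6% and 13.6%, and limma-voom 8.31% and 10.3%. Without adjustment the shares in edgeR were 12.4% below and 16.3% above. In the list 7 had TERT(High) values wholly below TERT(Low) values, beside 15.9% of all tested genes. Blvrb and Blvra, the biliverdin reductases of heme breakdown, were at 66.2 ± 5.91 against 121 ± 18.6 CPM and at 10.3 ± 0.0683 against 15.9 ± 1.28 CPM (log2 fold changes -0.87 and -0.63). For Blvra the edgeR adjusted p was 0.0439, and 0.0531 with the mouse as a block. Urod, a middle enzyme of heme synthesis, was at 69.5 ± 2.77 against 102.5 ± 3.82 CPM (log2 fold change -0.56). Alas1, the rate-limiting first enzyme of heme synthesis in liver, did not pass (log2 fold change 0.15, SE 0.52). The list median was -0.46, and -0.19 with the length and GC offsets.

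The assembly of iron-sulfur clusters, cofactors of the respiratory chain and of aconitases, followed the same direction. Of 26 genes 7 fell and 1 rose by edgeR (13 and 1 by DESeq2 and by limma-voom, which called 11.6% and 8.31% of all genes lower), and 16 had TERT(High) values wholly below TERT(Low) values, beside 15.9% of all tested genes. With the mouse as a block 4 fell and 1 rose. Over all tested genes edgeR called 3.71% lower and 4.43% higher, and 4.3% and 5.43% with the block. Bola1 and Bola3, mitochondrial assembly factors, were at 11.9 ± 0.219 against 21.1 ± 1.54 CPM and at 28.2 ± 1.10 against 49.4 ± 4.92 CPM (log2 fold changes -0.82 and -0.81). Isca2, needed for mitochondrial clusters of the larger kind, and Fdx1l, a ferredoxin of the pathway, were at 16.0 ± 0.896 against 27.6 ± 1.74 CPM and at 15.2 ± 0.160 against 25.6 ± 1.90 CPM (-0.79 and -0.76). The gene that rose, named after its values were seen, was the mitochondrial chaperone Hspa9, at 302 ± 28.6 against 194 ± 18.1 CPM (0.64, edgeR adjusted p = 0.0494). The list median was -0.51, and -0.22 with the length and GC offsets. The median transcript was 1945 nt for these genes and 1762 nt for those of heme metabolism, beside 3574 nt for the genes of signalling to hepcidin and 2962.5 nt for all tested genes.

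**Figure D5:**
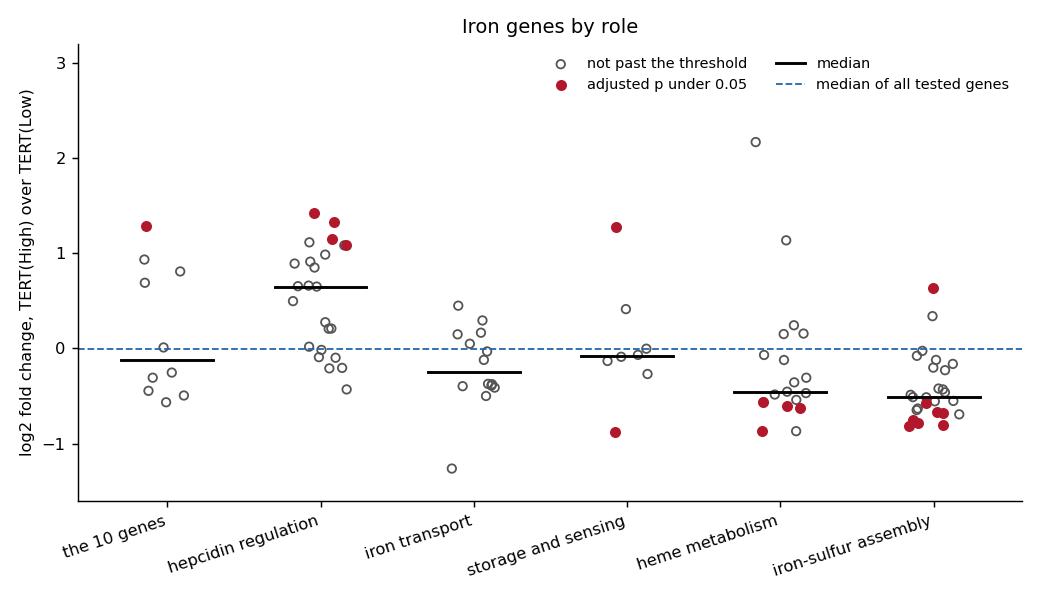
Log2 fold change of TERT(High) over TERT(Low) cells (y axis) for each tested gene of the 10 and of 5 further lists of iron genes (x axis), with genes at an adjusted p under 0.05 in red, the list median as a bar and the median of all tested genes as a dashed line. Medians run between 0.65 for hepcidin regulation and -0.51 for iron-sulfur assembly.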

How the data were processed

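Per the labels' protocols, cells were sorted into TRIzol-LS, the RNA was cleaned on RNeasy micro columns, and a stranded KAPA kit for mRNA gave the libraries. The submitters' processing notes name mm10 as the build and, as tools, TopHat2 2.0.13, Trim Galore 0.4.0 and DESeq2. How reads were counted (tool, strand, annotation) is not given in the sources used here. The deposited counts are raw: whole numbers for each gene in each library, with no scaling. A second deposited table holds results of the authors: per the file headers, its signal column baseMean is a mean of size-factor-scaled counts, and log2 fold changes with their standard errors, the linear fold, a test statistic (score) and p-value columns come from the authors' own comparison, in the direction TERT(High) over TERT(Low) as the counts show.

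The test was edgeR 4.0.16 in R 4.3.3 on all 6 libraries, with filterByExpr, TMM scaling, robust quasi-likelihood fits, the group as the only term and an adjusted p under 0.05 over all tested genes. Each SE was taken from the F statistic, as the size of the log2 fold change over the root of F. Within-mouse differences use log2 CPM with a prior count of 2. The labels tie both libraries of a pair to 1 mouse. The deviations of its 2 libraries from their group means correlated at -0.089, 0.733 and 0.601 for mice 1, 2 and 3, and a mouse block was an alternative. Others were scalings, filters, DESeq2 1.42.0, limma-voom (limma 3.58.1), offsets from natural splines (5 degrees of freedom each) in log2 transcript length and GC content, and leaving out libraries or mice. Fits were also run on simulated counts, which held no differences between mice and so do not test the fits under such differences. RefSeq GRCm38.p6 matched 99.7% of genes, and GENCODE M21 gave a coding transcript, that with the longest coding sequence, for 93.1%. All 10 genes matched the annotation, and Hfe2 is Hjv there. The genes and lists were chosen with earlier results of these data known. Named are the 10 genes, up to 4 called genes of each further list by size (or, with none, its 2 most abundant), the 5 genes most correlated with Hamp, and the most abundant marker of each cell type. Of these, 1 called gene is not reported here by name. Replicates are separate mice.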

Additional observations from a re-analysis of the deposited data

How the results depend on the processing

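Among the 10 genes the main test called 1 higher and 0 lower, among the 91 tested genes of the 5 further lists 6 and 12, and among all genes 588 and 493. An adjusted p under 0.1 gave 2 and 1, 10 and 18, and 1421 and 1138. DESeq2 gave 2 and 1, 11 and 19, and 1522 and 1298. Limma-voom gave 2 and 1, 10 and 20, and 1373 and 1104. The strict filter called 2 of the 10 higher, upper-quartile scaling called 1 lower, and without any filter 6 list genes were lower. Scaling by library totals alone shifted the median of all genes to 0.14 and left 0 list genes and 19 genes of the table lower, beside 4 and 628 higher. With length and GC offsets 0 passed in all 3 sets and both directions, also with the replicate block added.

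Both libraries of a number come from 1 mouse. With this replicate block 2 of the 10 were higher and 0 lower, with 5 and 9 list genes and 721 and 571 genes of the table. Apart from Cp, it changed no call among the 10.

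Leaving out 1 library or 1 mouse gave 0 to 1 of the 10 higher, 0 to 5 list genes higher and 0 to 15 lower, and 0 to 937 genes of the table higher and 0 to 713 lower. The counts above 0 came only without TERT(High) cells of mouse 1. The cause was not tested; each such fit has fewer samples.

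Across 19 settings the signs of Hfe, Ftl1, Fth1, Cp and Ireb2 did not turn. The log2 fold change of Hamp ran between -0.38 (without TERT(High) of mouse 2) and 1.47 when 1 library was left out. With 1 library left out, Hfe2 ran between -0.68 and 0.11 and Tfr2 between -0.475 and 0.006, above 0 only without TERT(Low) of mouse 2. Tfrc stood at -0.041 with the offsets and at -0.083 with offsets and block. Trf stood at -0.01 with DESeq2's factors in edgeR and in DESeq2, at -0.03 with upper-quartile scaling, between -0.19 and 0.29 on leaving out a library, and at -0.16 without mouse 3. Why these turned was not tested. Depth limits genes of few counts, such as Tert at 12 to 38 counts a library and Scara5 at 1 to 187.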

Other observations

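Among secreted and scavenging genes of iron biology, Lcn2 and Scara5 also differed more between mice than between the populations. Their mouse means ranged 16.5-fold and 112-fold, though the mouse term in edgeR did not pass (adjusted p = 0.127 and 0.114). Lcn2, the siderophore-binding lipocalin and an acute phase gene, had 15.4, 129 and 27.3 CPM in mice 1, 2 and 3 in TERT(High) cells, against 14.5, 365 and 32.5 CPM in TERT(Low) cells. Mouse 2 was the highest in both populations, and the log2 fold change of -1.26 had an SE of 1.31 (edgeR adjusted p = 0.579). Scara5, a receptor for ferritin, was at 2.59 and 3.57 CPM in TERT(High) and TERT(Low) cells of mouse 2 and at most 0.245 CPM in the other 4 libraries. Mouse 2 was thus the highest for both genes. For Lcn2, as for Hamp, both libraries of mouse 1 also lay below those of mice 2 and 3.

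Hpx, which encodes the plasma heme scavenger hemopexin, had 7292, 15780 and 9306 CPM in TERT(High) cells, against 12210, 29850 and 17140 CPM in TERT(Low) cells. It was lower in TERT(High) cells of each mouse, and the groups overlapped because mouse 2 was high in both populations. The log2 fold change of -0.87 had an edgeR adjusted p of 0.230, and of 0.0407 with the mouse as a block. Hp, the hemoglobin scavenger haptoglobin, had 4286, 8295 and 5011 CPM in TERT(High) cells, against 5492, 13310 and 6797 CPM in TERT(Low) cells (log2 fold change -0.54, edgeR adjusted p = 0.441, and 0.0762 with the block).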
